A study of Mus musculus with 20 samples.

Results

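Complex I (NADH:ubiquinone oxidoreductase) was described through its nuclear genes in mouse gastrocnemius muscle after denervation. The members were all genes of the expression table whose symbol begins with Nduf followed by a, b, c, s, v, ab or af and a digit, and whose value reached 1 in 4 or more libraries. The pattern matched 47 of 32285 genes, all 47 passed the filter, and 17948 genes were tested in all. By role, the 47 were 37 structural subunits, 8 assembly factors (Ndufaf1 to Ndufaf8) and 2 related genes, Ndufa4 and Ndufa4l2, which are not counted as complex I subunits here. All mice were 12-week-old males and muscle was taken at day 7. The groups were Opg-/- den, WT den, Opg-/- sham and WT sham, with 5 libraries each. Den was the right hind limb, whose sciatic nerve was transected, and sham the left hind limb, whose nerve was exposed only, so sham muscle is not unoperated muscle. The Opg-/- mice were homozygous for a germline allele of Tnfrsf11b, the gene of osteoprotegerin, and WT mice carry the strain label C57BL/6. Values are expected read counts divided by 1 size factor per library (normalized expected counts), and fold changes are den over sham, or Opg-/- over WT, of (value + 1) on the log2 scale.

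Complex I passes electrons from NADH to ubiquinone and pumps protons across the inner mitochondrial membrane. It is L-shaped: the peripheral arm in the matrix holds the flavin and the iron-sulfur clusters, and the membrane arm holds the proton pumps. The core of the peripheral arm is encoded in the nucleus and that of the membrane arm in mitochondrial DNA, while the supernumerary subunits of both arms surround this core and are all nuclear. Assembly factors join modules, modify subunits or insert cofactors and then leave, so they are not part of the finished enzyme. In muscle the enzyme serves contraction through oxidative phosphorylation, and its content is known to decline in unused muscle.

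Sequencing depth was similar, with 15186247 to 20102295 reads recovered per library. The first and second WT sham libraries were closer than sampling noise (chi-square per degree of freedom 0.324, against 6.78 to 25.7 in the 39 other pairs within a group) and were counted as 1 library, so WT sham had n = 4. Tnfrsf11b was close to the limit of detection and went against the genotype label. It averaged 8.78 ± 1.99 (SD, n = 5) in sham libraries labelled Opg-/- and 2.75 ± 1.90 (n = 4) in WT sham (exact permutation test, two-sided p = 0.0159, which is the smallest that 5 against 4 can give). In den it averaged 5.98 ± 3.75 by the Opg-/- label and 4.41 ± 1.90 in WT (n = 5 each, exact permutation test, p = 0.540). Reads of an altered allele cannot be told from those of an intact one in a single value per gene, and the groups are therefore called by their labels. Skeletal muscle fibre markers such as Acta1 and Ckm were high in every library. Both limbs of each mouse were collected, but the replicate numbers are not stated to mark a mouse, and p-values measure the spread between these libraries, which may be technical in part.

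Nearly all complex I genes were lower after denervation, in both genotypes. In the libraries labelled Opg-/-, 43 of 47 members fell, 1 rose and 3 did not pass the test (limma, Benjamini-Hochberg adjusted over all 17948 genes, threshold 0.05), where 26.4% of all genes fell and 28.6% rose. In WT, 38 fell, 1 rose and 8 did not pass, where 25.7% of all genes fell and 26.9% rose. The median log2 fold change of the 47 was −0.76 in Opg-/- and −0.62 in WT, beside 0.02 and −0.00 over all genes tested. All den libraries lay below all sham libraries for 39 members in Opg-/- and 32 in WT, against 19.4% and 21.5% of all genes. A fall past 1 on the log2 scale was found for 10 members in Opg-/- and 4 in WT, beside 10.2% of all genes in each. The fall thus took in most members but was moderate in size. The scaling of the libraries moved this split. With library totals made equal in place of the deposited size factors, the median of all genes shifted to 0.42 in Opg-/- and 0.26 in WT, 30 members fell and 5 rose in Opg-/- (12.8% and 47.5% of all genes), and 29 fell and 8 rose in WT (15.2% and 39.2%). Relative to the median of all genes, the median of the members was −0.78 by the deposited values and −0.72 by equal totals in Opg-/-, and −0.62 and −0.58 in WT. In whole muscle, fewer cells of a type and less RNA per cell cannot be told apart.

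**Figure D1:**
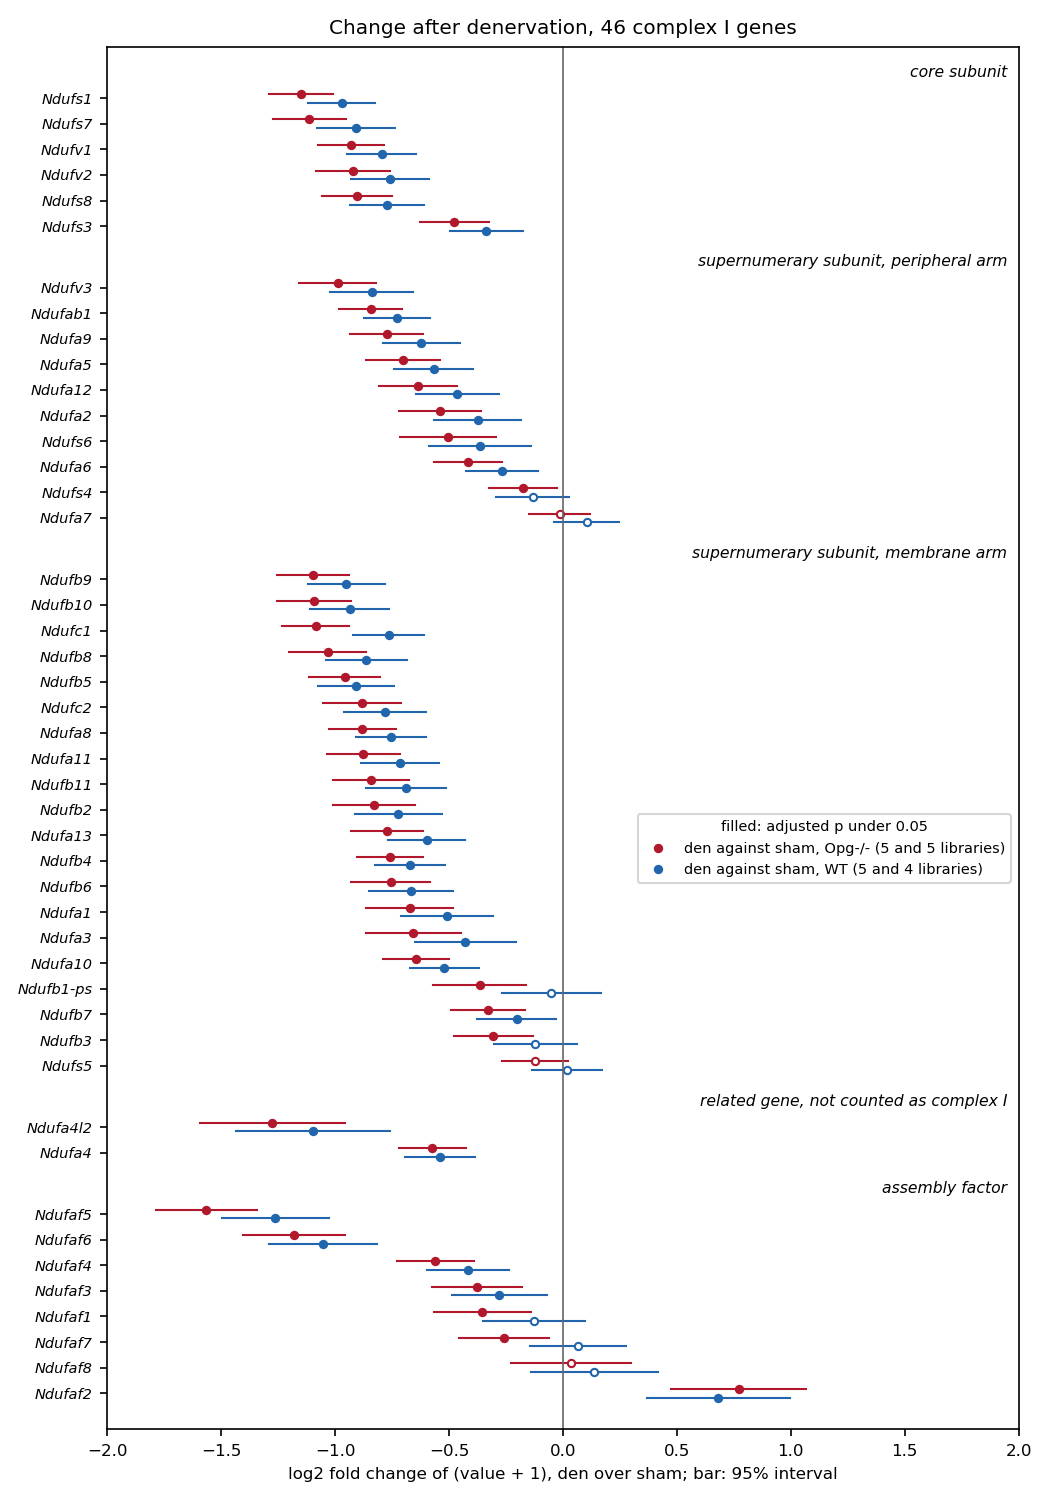
Log2 fold change of (value + 1), den over sham, for 46 members, grouped by role and ordered by the change in libraries labelled Opg-/- (red, above) with WT beneath (blue). Bars are 95% intervals and filled points have an adjusted p under 0.05 (limma). Points lie left of 0 for most members, Ndufaf5 lies farthest left in both genotypes, and Ndufaf2 is the member that rose.

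The core subunits of the peripheral arm carry the redox chain, and those described here fell in both genotypes. Ndufs1 (ENSMUSG00000025968, chromosome 1, 63143596 to 63176833 of mm10), the largest subunit and a carrier of several iron-sulfur clusters, had 3324, 2876, 2988, 2931 and 3063 in den libraries labelled Opg-/-, against 7593, 6925, 6654, 6124 and 6446 in their sham. In WT it had 3114, 2962, 3014, 3043 and 3139.7 in den, against 6966, 5534, 5826 and 5739 in sham. No den library came near a sham library, and the spread within each limb was small beside the gap. The mean was 3036 ± 175 in Opg-/- den and 6748 ± 556 in Opg-/- sham (SD, n = 5 each), and 3055 ± 72.8 in WT den (n = 5) and 6016 ± 645 in WT sham (n = 4). The log2 fold change was −1.15 ± 0.07 in Opg-/- (SE, adjusted p = 1.5e-14) and −0.97 ± 0.07 in WT (adjusted p = 2.7e-12). Ndufs7, which binds the last cluster before ubiquinone, changed by −1.11 ± 0.08 in Opg-/- and −0.91 ± 0.08 in WT. The flavin and NADH site lies in Ndufv1, which changed by −0.93 ± 0.07 and −0.80 ± 0.07, and its partner Ndufv2 by −0.92 ± 0.08 and −0.76 ± 0.08. Ndufs8, another iron-sulfur subunit, changed by −0.90 ± 0.08 and −0.77 ± 0.08.

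Ndufs3 stood apart from the other core subunits. It had 2961, 2845, 2824, 2611 and 2793 in den libraries labelled Opg-/-, against 4450.1, 3654, 3753, 3569 and 4179 in their sham. In WT it had 2612, 2682, 2619, 3261 and 2687 in den, against 3945, 3258, 3383 and 3400.4 in sham, so that WT den 4 overlapped with the sham range. Its log2 fold change was −0.48 ± 0.07 in Opg-/- (95% interval −0.63 to −0.33, adjusted p = 2.6e-06) and −0.34 ± 0.08 in WT (−0.50 to −0.18, adjusted p = 6.2e-04). The intervals of the other core subunits described here reached no higher than −0.75 in Opg-/-, below the lower bound for Ndufs3, and in WT no higher than −0.59. With equal library totals Ndufs3 did not pass the test in either genotype (log2 fold change −0.03 in each).

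Supernumerary subunits have no redox centre of their own and stabilise or regulate the core. Of the 10 in the peripheral arm, 9 fell in Opg-/- and 8 in WT (26.4% and 25.7% of all genes), with medians of −0.59 and −0.42 on the log2 scale. Ndufv3, a small subunit at the tip of the arm, changed most (−0.99 ± 0.08 in Opg-/- and −0.84 ± 0.09 in WT), followed by Ndufab1, the mitochondrial acyl carrier protein (−0.85 ± 0.07 and −0.73 ± 0.07). Ndufab1 was counted here with this arm only. Ndufs4, whose loss in mice gives a Leigh-like encephalopathy, was at the edge of the threshold. It averaged 1964 ± 59.2 in Opg-/- den and 2223 ± 169 in Opg-/- sham (log2 fold change −0.18 ± 0.07, adjusted p = 0.044), and 1928 ± 249 in WT den and 2102 ± 111 in WT sham (−0.13 ± 0.08, adjusted p = 0.16). Of the 19 libraries, each left out in turn, 10 cost the Opg-/- call when left out (adjusted p = 0.050 to 0.12). These were den 2, 3, 4 and 5 and sham 1, 2, 3 and 5 of Opg-/-, WT den 5 and WT sham 3. The call was also lost without a filter (adjusted p = 0.054) and with a replicate block (adjusted p = 0.062). Conversely, the gene passed in WT without WT den 4 (−0.20, adjusted p = 0.016), and with equal library totals it rose in both genotypes (0.28 in Opg-/- and 0.17 in WT). Both values lay below the median of all genes by that scaling (0.42 and 0.26).

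Of the 20 supernumerary subunits of the membrane arm, 19 fell in Opg-/- and 17 in WT (26.4% and 25.7% of all genes), with medians of −0.80 and −0.68. The largest falls in the mean of both genotypes were those of Ndufb9, Ndufb10, Ndufc1, Ndufb8 and Ndufb5. Ndufb9 (ENSMUSG00000022354, chromosome 15, 58933756 to 58939488), a subunit of the LYR family that binds the acyl carrier protein, had 3067, 2726, 2599, 2899 and 2602 in Opg-/- den, against 6751, 5888, 5997, 5141 and 5991 in Opg-/- sham. Its WT values were 2648, 3250.0, 2590.5, 3229 and 2684 in den, against 5797, 5148, 5698 and 5547 in sham. The limbs did not overlap in either genotype, and the log2 fold change was −1.10 ± 0.08 in Opg-/- (adjusted p = 6.4e-13) and −0.95 ± 0.08 in WT (adjusted p = 5.8e-11). Ndufb10, a subunit with paired cysteines on the intermembrane side, changed by −1.09 ± 0.08 and −0.94 ± 0.08. Ndufb8, Ndufb5 and Ndufc1 are single-pass subunits of the same arm. They changed by −1.03 ± 0.08, −0.96 ± 0.08 and −1.09 ± 0.07 in Opg-/- and by −0.86 ± 0.09, −0.91 ± 0.08 and −0.77 ± 0.08 in WT.

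At the other end, 5 structural subunits outside the core had the smallest changes in the mean of both genotypes: Ndufa7, Ndufs5, Ndufs4, Ndufb1-ps and Ndufb3. Ndufs5 (chromosome 4, 123712710 to 123718202), a cysteine-rich subunit on the intermembrane side, had 1832, 1720.4, 1785, 1783 and 1703 in Opg-/- den, against 2212, 1877, 1831, 1704 and 2026 in Opg-/- sham. WT den had 1621, 1882, 1728, 1956 and 1660.4, against 1908, 1649, 1638 and 1796 in WT sham. The limbs overlapped, and the log2 fold change was −0.12 ± 0.07 in Opg-/- (95% interval −0.27 to 0.02, adjusted p = 0.15) and 0.02 ± 0.08 in WT (−0.14 to 0.17, adjusted p = 0.87). Ndufa7 (chromosome 17, 33824572 to 33838317), of the peripheral arm, averaged 1870.5 ± 68.2 in Opg-/- den and 1893 ± 132 in Opg-/- sham, with an interval of −0.15 to 0.12 for the log2 fold change. In WT it averaged 1842 ± 157 in den and 1711 ± 88.4 in sham, with an interval of −0.04 to 0.25. The intervals of both genes lay above the median change of the structural subunits in the same comparison, −0.77 in Opg-/- and −0.67 in WT. Both genes were chosen for small changes in these same comparisons, so this is a description and not a test. With equal library totals both genes rose, Ndufs5 by 0.33 and 0.32 and Ndufa7 by 0.44 and 0.41 in Opg-/- and WT. By that scaling the median of all genes was itself 0.42 in Opg-/- and 0.26 in WT. Ndufs5 lay below it in Opg-/- and above it in WT, and Ndufa7 lay above it in both genotypes. Ndufb3, a small membrane-arm subunit, fell in Opg-/- (−0.31 ± 0.08, adjusted p = 0.0028) and did not pass in WT (−0.12 ± 0.09, adjusted p = 0.27). Ndufb1-ps is the mouse locus of the Ndufb1 subunit and is annotated as a lncRNA with a bidirectional promoter. It likewise fell in Opg-/- (−0.36 ± 0.10, adjusted p = 0.0027) and did not pass in WT (−0.05 ± 0.11, adjusted p = 0.71). With equal totals neither gene passed in Opg-/-. Both rose in WT (Ndufb3 by 0.18, Ndufb1-ps by 0.25), but by less than the median of all genes there.

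**Figure D2:**
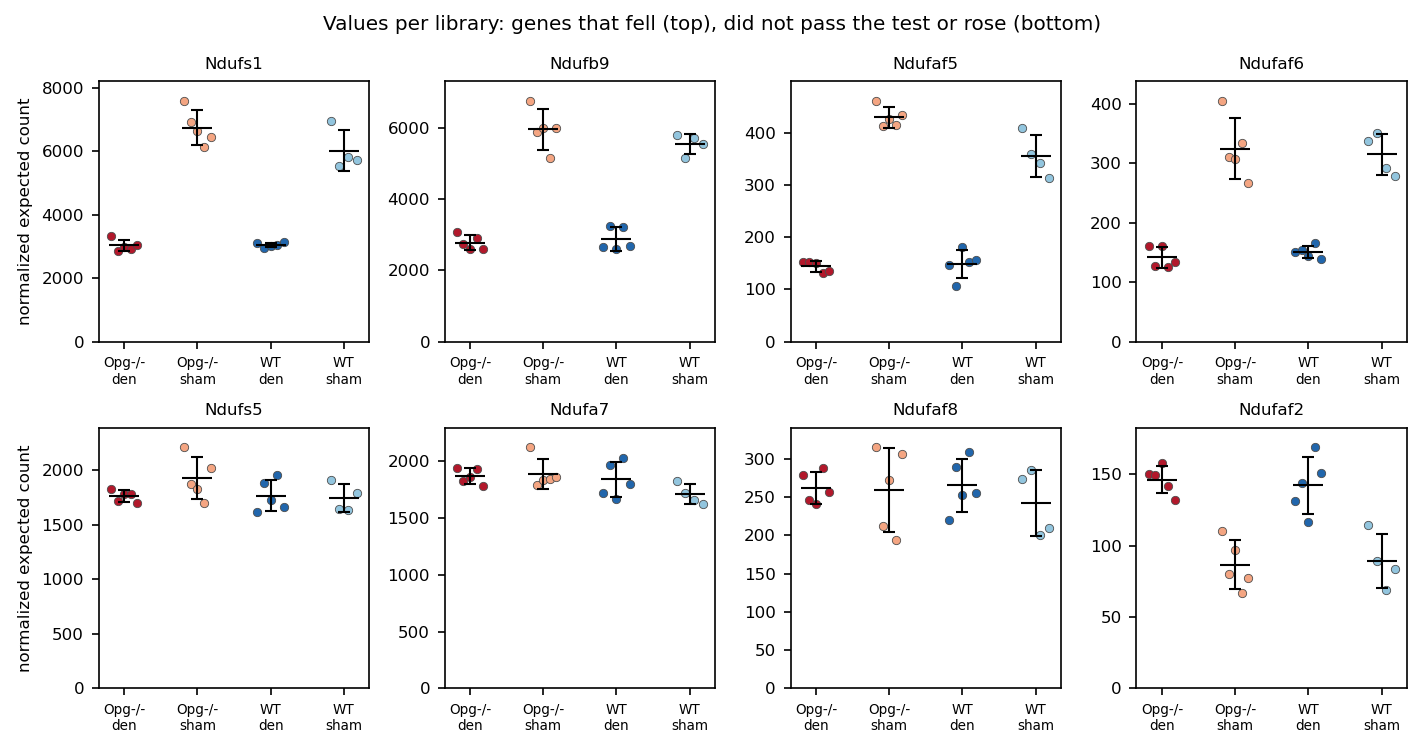
Normalized expected counts per library (points) with mean and SD (bars) in den and sham libraries labelled Opg-/- (n = 5 each) and WT (n = 5 and n = 4), each vertical axis starting at 0. Den and sham do not overlap for the 4 genes of the top row (Ndufs1, Ndufb9, Ndufaf5, Ndufaf6), they overlap for Ndufs5, Ndufa7 and Ndufaf8, and den lies above sham for Ndufaf2.

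The 8 assembly factors spread wider than the structural subunits, from the largest fall of all members to the only rise. In Opg-/-, 6 fell, 1 rose and 1 did not pass, and in WT 4 fell, 1 rose and 3 did not pass. Among all genes, 26.4% fell and 28.6% rose in Opg-/-, and 25.7% fell and 26.9% rose in WT. With equal library totals 2 fell and 2 rose in Opg-/- (12.8% and 47.5% of all genes), and 2 fell and 3 rose in WT (15.2% and 39.2%). Ndufaf5 (ENSMUSG00000027384, chromosome 2, 140170649 to 140203689) hydroxylates an arginine of Ndufs7 in human cells at an early step of assembly. It had 152, 153, 151, 131 and 135 in Opg-/- den, against 461, 412, 425, 414 and 433 in Opg-/- sham. In WT it had 147, 107, 182, 153 and 156 in den, against 409, 359, 343 and 313 in sham. Each den library held less than each sham library. The log2 fold change was −1.57 ± 0.11 in Opg-/- (adjusted p = 4.1e-13) and −1.26 ± 0.11 in WT (adjusted p = 1.7e-10). Ndufaf8 (chromosome 11, 120098928 to 120100705) binds Ndufaf5 in human cells and is needed for its stability there. It had 279, 246, 241, 288 and 256 in Opg-/- den, against 315, 212, 272, 193 and 307 in Opg-/- sham, and its WT values were 219.8, 289, 253, 309 and 256 in den, against 274, 286, 201 and 209 in sham. The limbs overlapped, and neither change passed the test (log2 fold change 0.04 ± 0.13, 95% interval −0.23 to 0.30, in Opg-/- and 0.14 ± 0.14, −0.14 to 0.42, in WT). The intervals of these partners lay far apart in both genotypes, at most −1.34 and −1.03 for Ndufaf5 and at least −0.23 and −0.14 for Ndufaf8. With equal library totals Ndufaf8 rose (0.49 in Opg-/- and 0.44 in WT) while Ndufaf5 still fell (−1.12 and −0.96). The median of all genes by that scaling was 0.42 in Opg-/- and 0.26 in WT.

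Ndufaf6, a factor of early assembly with a squalene and phytoene synthase fold, had the second largest fall among the factors. Its values were 162, 128, 160.3, 126 and 134 in Opg-/- den, against 405, 310.3, 306, 334 and 266 in Opg-/- sham, and 150.2, 154, 144, 166 and 139.5 in WT den, against 338, 351, 292 and 279 in WT sham. The limbs did not overlap, with log2 fold changes of −1.18 ± 0.11 (adjusted p = 2.0e-10) and −1.05 ± 0.12 (adjusted p = 7.4e-09). Ndufaf3 and Ndufaf4 act together on the ubiquinone-binding module. Ndufaf4 changed by −0.56 ± 0.08 in Opg-/- and −0.42 ± 0.09 in WT, and Ndufaf3 by −0.38 ± 0.10 and −0.28 ± 0.10, all past the threshold. The WT call for Ndufaf3 (adjusted p = 0.023) was lost without WT den 1, WT den 3 or WT sham 4 (adjusted p = 0.054, 0.065 and 0.081). With equal totals neither factor passed in either genotype. Ndufaf1 belongs to the complex that builds the first part of the membrane arm, and Ndufaf7 is an arginine methyltransferase of early assembly. Both fell in Opg-/- (Ndufaf1 −0.35 ± 0.10, adjusted p = 0.0046, Ndufaf7 −0.26 ± 0.10, adjusted p = 0.025) and did not pass in WT (−0.13 ± 0.11 and 0.07 ± 0.10). With equal totals both Opg-/- calls were lost (Ndufaf1 0.10, Ndufaf7 0.19), and Ndufaf7 rose in WT (0.37, adjusted p = 0.0039). By that scaling the median of all genes was 0.42 in Opg-/- and 0.26 in WT. The Ndufaf7 call in Opg-/- was also lost without Opg-/- den 2, Opg-/- den 5 or Opg-/- sham 1 (adjusted p = 0.099, 0.059 and 0.065). No difference between the genotypes' responses passed the test for any of these factors.

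Ndufaf2 was the only member that rose with denervation, and its structural paralog Ndufa12 fell. Ndufaf2 (ENSMUSG00000068184, chromosome 13, 108002715 to 108158623) acts late in assembly and is replaced by Ndufa12 in the finished peripheral arm. It had 150.3, 149, 158, 142 and 132 in den libraries labelled Opg-/-, against 110.3, 80.4, 97, 67.1 and 77.6 in their sham. In WT it had 131, 144, 116, 169 and 151 in den, against 114, 89.4, 68.7 and 83.8 in sham. Each den library was above each sham library of its genotype, though in WT the highest sham library (114) came close to the lowest den library (116). The log2 fold change was 0.77 ± 0.14 in Opg-/- (adjusted p = 4.2e-05) and 0.68 ± 0.15 in WT (adjusted p = 4.2e-04). Ndufa12 (chromosome 10, 94198720 to 94221443) had 1689, 1589, 1655, 1517 and 1628 in Opg-/- den, against 2932, 2382, 2514, 2159.7 and 2623 in Opg-/- sham. Its WT values were 1483, 1594, 1634, 2144 and 1639.7 in den, against 2575, 2338, 2225 and 2179 in sham. The gene fell by 0.64 ± 0.08 on the log2 scale in Opg-/- (adjusted p = 1.9e-07) and by 0.46 ± 0.09 in WT (adjusted p = 6.3e-05), and WT den 4 lay close to the lowest sham library. As a ratio of values, Ndufaf2 per 100 of Ndufa12 ran over 8.12 to 9.54 in Opg-/- den and 7.11 to 9.19 in WT den, against 2.96 to 3.86 in Opg-/- sham and 3.09 to 4.44 in WT sham. Both directions held under all alternatives tried, equal library totals included (1.22 and 0.98 for Ndufaf2, −0.18 and −0.16 for Ndufa12). Ndufaf2 shares 65.6% of its merged exon length with an antisense lncRNA, B230220B15Rik, and the libraries were not strand-specific, so reads of these genes cannot be told apart where they overlap. B230220B15Rik itself averaged at most 2.83 in any group.

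The ratio of the transcripts of a modifying enzyme to those of its substrate was lower on average in den, and protein was not measured. Ndufaf5 per 100 of Ndufs7 was 5.36 to 6.25 in Opg-/- den, against 7.37 to 8.43 in Opg-/- sham. In WT it was 4.39 to 7.43 in den, against 6.97 to 8.17 in sham, and the limbs overlapped. Each den library thus held relatively less Ndufaf5 than each sham library in Opg-/-, while in WT this was so on average. Ratios within a library do not depend on its scaling, and they were not tested.

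**Figure D3:**
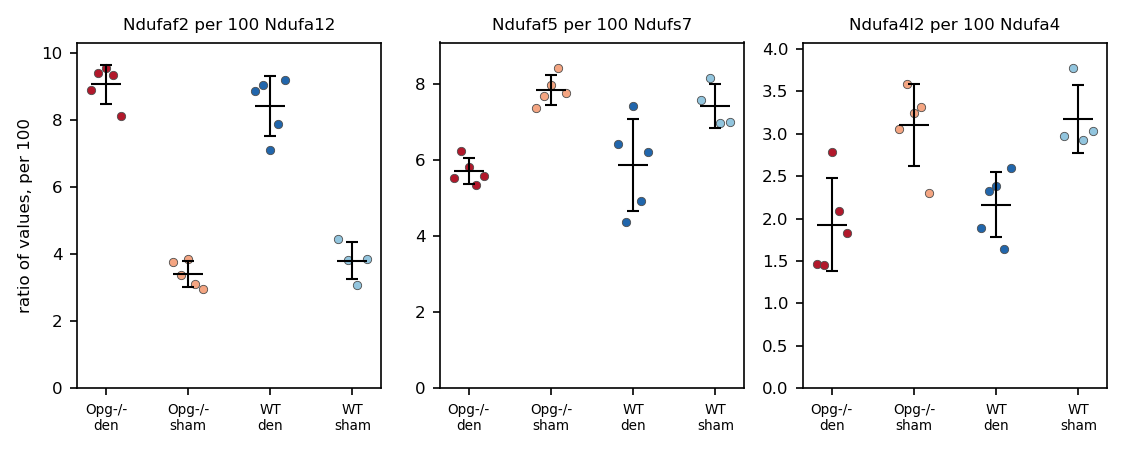
Ratio of the values of related genes within each library, per 100 of the second gene, with mean and SD, in den and sham libraries labelled Opg-/- (n = 5 each) and WT (n = 5 and n = 4). The Ndufaf2 to Ndufa12 ratio is higher in all den libraries, while Ndufaf5 to Ndufs7 and Ndufa4l2 to Ndufa4 are lower on average.

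Taken as classes, structural subunits fell further than assembly factors by the median, and this was a description with no test because members of a class share libraries. The median log2 fold change was −0.77 over the 37 structural subunits and −0.37 over the 8 assembly factors in Opg-/-, and −0.67 and −0.20 in WT. With equal library totals the structural medians were −0.32 in Opg-/- and −0.37 in WT, and the assembly medians turned direction, to 0.086 and 0.10. Over all genes the median by that scaling was 0.42 and 0.26, and both classes stayed below it. The difference between the class medians, structural minus assembly, was −0.41 in Opg-/- and −0.47 in WT. Leaving out single libraries it ran from −0.45 to −0.38 and from −0.51 to −0.44. The quartiles overlapped, from −0.93 to −0.54 for structural subunits and from −0.72 to −0.19 for assembly factors in Opg-/-, and from −0.78 to −0.38 and from −0.58 to 0.08 in WT. Within each library, the sum of the structural subunits was 32 to 35 times the sum of the assembly factors in Opg-/- den, against 38.4 to 43.9 times in Opg-/- sham. In WT it was 31 to 34 times in den, against 38.2 to 42.8 times in sham, and den and sham did not overlap in either genotype. The difference of the class medians of log2(value + 1) within a library did not separate the limbs, at 2.99 to 3.19 in Opg-/- den and 2.9 to 3.1 in WT den, against 3.02 to 3.19 in Opg-/- sham and 2.79 to 3.08 in WT sham.

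**Figure D4:**
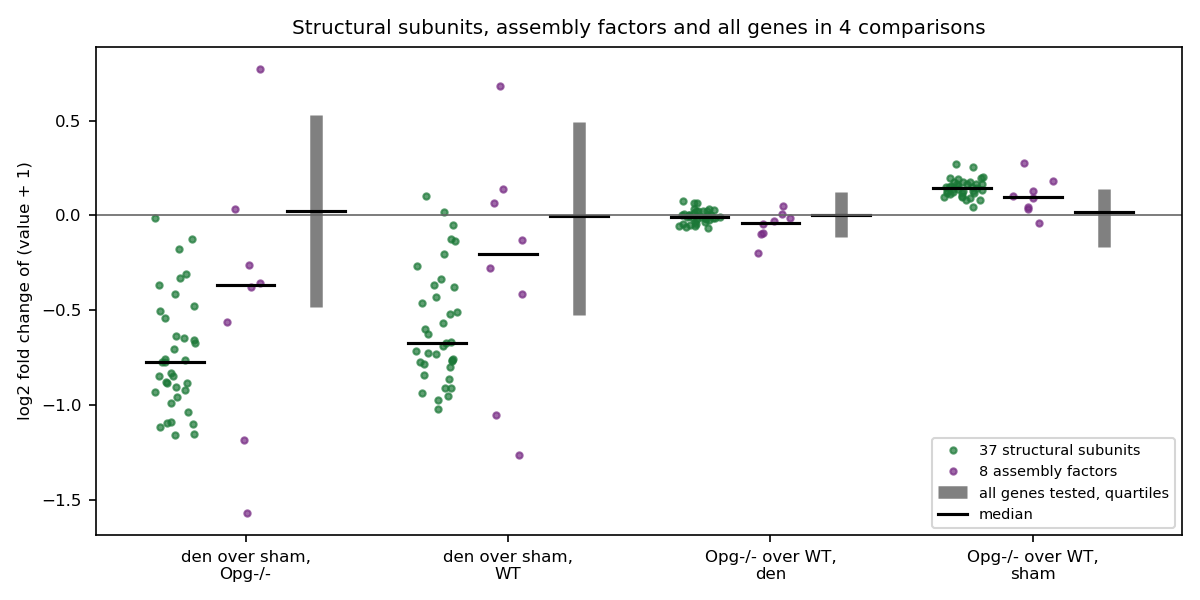
Log2 fold change of (value + 1) of the 37 structural subunits (green) and the 8 assembly factors (purple), each point 1 gene, with the quartiles of the 17948 genes tested (grey) and medians (black lines) in 4 comparisons. The structural median lies at −0.77 and −0.67 after denervation, and near 0 between the genotypes in den limbs.

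Levels per length differed between the classes far more than they changed. Per kb of merged exon length, structural subunits had a median of 1118 normalized expected counts in Opg-/- den and 1133 in WT den, against 1735 in Opg-/- sham and 1524 in WT sham, over 37 genes. The 8 assembly factors had medians of 103 in Opg-/- den and 107 in WT den, against 199 in Opg-/- sham and 176 in WT sham. In WT sham the structural subunits ran from 304 (Ndufb2) to 5381 (Ndufb9) per kb and the assembly factors from 29.9 (Ndufaf2) to 345 (Ndufaf1), so the classes met only at their edges. Per kb of the principal transcript, which was available for 34 and 6 of these genes, they did not meet in WT sham, at 709.5 to 7880 and 131 to 310.4. Merged exons include rare isoforms and understate the level of some genes. Spread within a group was also wider for assembly factors, with a median coefficient of variation of 11.1% (4.6% to 21.3%), than for structural subunits, with 8.53% (1.39% to 18.0%). Over the 37 structural subunits, genes with a higher mean log2 value in WT sham had larger falls in Opg-/- (Pearson's r = −0.55, and −0.45 over the 30 outside the core). Genes are not independent replicates, all share the same libraries, and values here are not per length, so this r is a description.

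The 7 mitochondrially encoded subunits, which form the core of the membrane arm, all fell in both genotypes (26.4% and 25.7% of all genes did). By the deposited scaling their median fall was 1.18 on the log2 scale in Opg-/- and 1.01 in WT. Fold changes with equal library totals are not given for these genes. mt-Nd2 changed most (−1.63 ± 0.07 in Opg-/- and −1.40 ± 0.08 in WT), and mt-Nd5 had −1.07 ± 0.08 and −1.01 ± 0.08. Their summed value per summed value of the 37 nuclear subunits was 3.84 to 4.18 in Opg-/- den, against 5.45 to 5.83 in Opg-/- sham. In WT it was 3.74 to 4.6 in den, against 5.53 to 6.14 in sham. The transcripts of mitochondrially encoded subunits were thus lower relative to those of the nuclear subunits in each den library than in any sham library of its genotype. The nuclear subunits themselves summed to 64086 to 70504 in Opg-/- den, against 101371 to 130573 in Opg-/- sham, and to 60689 to 76323 in WT den, against 98637 to 114889.9 in WT sham. As a share of the summed values of a library they took 0.426% to 0.453% and 0.419% to 0.479% in Opg-/- den and WT den, against 0.531% to 0.592% and 0.552% to 0.573% in Opg-/- sham and WT sham.

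**Figure D5:**
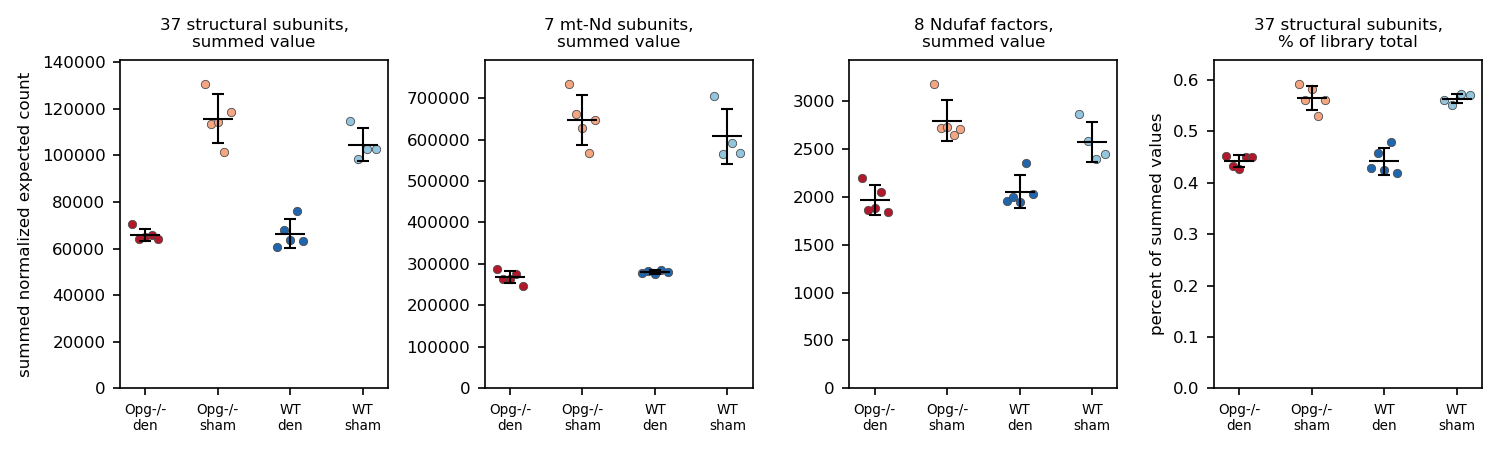
Summed values per library of the 37 nuclear structural subunits, the 7 mitochondrially encoded subunits and the 8 assembly factors, and the share of the library total taken by the structural subunits, with mean and SD, in den and sham libraries labelled Opg-/- (n = 5 each) and WT (n = 5 and n = 4). Den lies below sham in all 4 plots, without overlap within a genotype.

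Other factors of complex I assembly do not carry the Ndufaf name. Of 12 in the table, 9 fell and 2 rose in each genotype by the deposited scaling, with medians of −0.63 in Opg-/- and −0.42 in WT. Among all genes, 26.4% fell and 28.6% rose in Opg-/-, and 25.7% fell and 26.9% rose in WT. Dmac2 (formerly Atp5sl), a factor of the distal membrane arm, changed most (−1.17 ± 0.07 and −1.06 ± 0.08). Acad9, Ecsit, Tmem126b and Timmdc1, which build the membrane arm around Ndufaf1, changed by −0.78, −0.84, −0.90 and −0.76 in Opg-/- and by −0.76, −0.61, −0.61 and −0.43 in WT. Nubpl, which delivers iron-sulfur clusters to complex I, rose (0.58 ± 0.12, adjusted p = 1.0e-04, in Opg-/- and 0.67 ± 0.12, adjusted p = 3.3e-05, in WT). It had 184, 165, 160.3, 179 and 166 in Opg-/- den, against 107, 107, 144, 115 and 101 in Opg-/- sham. Lyrm2, a LYR protein tied to late assembly, rose too (0.74 ± 0.12, adjusted p = 7.7e-06, and 1.06 ± 0.13, adjusted p = 6.4e-08). Ndufaf2 was therefore not alone among assembly factors in rising. Nuclear subunits of complexes II to V, 40 genes, had medians of −0.84 in Opg-/- and −0.71 in WT, with 38 lower in each and 1 higher in WT. Results with equal library totals are not given for these lists, and their counts may depend on the scaling. That scaling moved the median of all genes to 0.42 in Opg-/- and 0.26 in WT.

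Ndufa4 and Ndufa4l2 match the name pattern but are set apart by function. Ndufa4 is now assigned to cytochrome c oxidase, and Ndufa4l2 is its paralog, a target of hypoxia signalling. Ndufa4 averaged 4189 ± 194 in Opg-/- den and 6238 ± 397 in Opg-/- sham, and 3986 ± 486 in WT den and 5775 ± 251 in WT sham. It fell by 0.57 ± 0.07 and 0.54 ± 0.08 on the log2 scale in Opg-/- and WT, though with equal totals the Opg-/- call was lost (−0.12, adjusted p = 0.052). Ndufa4l2 (chromosome 10, 127514967 to 127517154) had 66.2, 57.7, 115, 87.4 and 76.2 in Opg-/- den, against 202, 232, 196, 187 and 147 in Opg-/- sham. Its WT values were 67.8, 91, 93, 79.3 and 95.7 in den, against 182, 215, 164 and 171 in sham. The log2 fold changes were −1.28 ± 0.16 (adjusted p = 4.5e-08) and −1.10 ± 0.17 (adjusted p = 1.9e-06), and this gene held the lowest value of any member (57.7). All 6 smooth muscle markers fell as well in both genotypes (26.4% and 25.7% of all genes did), with medians of −1.47 and −1.24. So did all 10 endothelial markers (medians −1.07 and −0.96). Of 10 muscle fibre markers 9 fell in Opg-/- (median −1.16), and 8 fell and 1 rose in WT (median −0.88). Macrophage markers rose, 10 of 10 in Opg-/- and 5 of 10 in WT. Further lists are given with the cell type markers below. The part of these shifts in the fall of Ndufa4l2 was not tested.

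Promoter sequence was examined because most members moved together. Windows from 250 bases before to 50 after the gene start (RefSeq, GRCm38.p6) were available for 41 of the 47 members, among them 33 structural subunits and 7 assembly factors. Short motifs of factors known for mitochondrial genes were searched on both strands: CGCATGCG for NRF1, AAGATGGC for YY1, TNAAGGTCA for estrogen-related receptors and CCGGAAGT for ETS factors. AAGATGGC was found in 8 members (19.5%), against 3.19% of all 27025 genes of the table and 3.57% of its 17491 protein-coding genes. CGCATGCG was found in 4 (9.76%), against 2.07% and 2.77%. TNAAGGTCA was found in 1 member (2.44%), against 1.43% and 1.19%, and CCGGAAGT in 1 (2.44%), against 4.31% and 5.69%. A match is a run of letters, not a shown binding site. The 30-base windows that hold the matches are shown because they show how alike the AAGATGGC matches are in place and orientation. Sequences run 5′ to 3′ on the gene's strand with the motif in capitals, first the 8 with AAGATGGC, then the 4 with CGCATGCG, then TNAAGGTCA in Ndufb4 and CCGGAAGT, as its reverse complement, in Ndufs3.
Ndufs7 (chr10:80249462-80249491, plus strand): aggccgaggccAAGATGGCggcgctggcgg
Ndufc1 (chr3:51408915-51408944, minus strand): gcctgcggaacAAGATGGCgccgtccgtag
Ndufb8 (chr19:44555393-44555422, minus strand): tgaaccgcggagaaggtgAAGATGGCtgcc
Ndufa9 (chr6:126849097-126849126, minus strand): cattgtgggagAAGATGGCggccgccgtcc
Ndufa3 (chr7:3617384-3617413, plus strand): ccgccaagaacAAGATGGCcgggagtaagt
Ndufs6 (chr13:73328433-73328462, minus strand): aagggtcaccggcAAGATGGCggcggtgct
Ndufs4 (chr13:114388045-114388074, minus strand): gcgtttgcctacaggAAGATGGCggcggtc
Ndufaf8 (chr11:120098933-120098962, plus strand): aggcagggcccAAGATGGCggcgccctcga
Ndufaf5 (chr2:140170652-140170681, plus strand): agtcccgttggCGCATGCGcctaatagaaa
Ndufaf4 (chr4:24897960-24897989, plus strand): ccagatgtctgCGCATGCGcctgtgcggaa
Ndufa8 (chr2:36049329-36049358, minus strand): gtcgctggagaCGCATGCGcagatggtacc
Ndufa11 (chr17:56717692-56717721, plus strand): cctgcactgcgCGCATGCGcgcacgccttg
Ndufb4 (chr16:37654406-37654435, minus strand): ttcctgagccTGAAGGTCAgactcgagagg
Ndufs3 (chr2:90904703-90904732, minus strand): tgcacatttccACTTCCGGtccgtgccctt

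All 8 AAGATGGC matches lay downstream of the annotated start, with their first base at positions 11 to 39, and all read in the direction of the gene. Each holds the letters ATG, and whether these were start codons of translation was not examined. What the shared place and orientation of the matches reflect was not tested. The genes that carried AAGATGGC ran from −1.11 to 0.04 in Opg-/-, without the members of the largest fall or the rise. Ndufs7 (−1.11 in Opg-/- and −0.91 in WT), Ndufc1 (−1.09 and −0.77) and Ndufb8 (−1.03 and −0.86) were among the largest falls, while Ndufs4 (−0.18 and −0.13) and Ndufaf8 (0.04 and 0.14) were among the smallest changes. The CGCATGCG carriers were Ndufaf5 (−1.57 and −1.26), Ndufa8 (−0.88 and −0.76), Ndufa11 (−0.88 and −0.71) and Ndufaf4 (−0.56 and −0.42). All of them fell, as did 43 of all 47 members in Opg-/- and 38 in WT. With equal library totals Ndufaf4 did not pass in either genotype. The Ndufaf2 window held none of the 4 motifs. The members lie on 18 chromosomes, with at most 6 on 1 of them (chromosome 17).

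Between genotypes, no complex I gene passed the test. In den limbs 0 of 47 members differed between libraries labelled Opg-/- and WT by limma (0.0613% of all genes did) or by limma voom on recovered reads, the median log2 fold change was −0.01, and 0 had an unadjusted p under 0.05 (6.89% of all genes). The 2 members with the smallest p there were Ndufaf4 (−0.10 ± 0.08, adjusted p = 0.89) and Ndufaf7 (−0.20 ± 0.10, adjusted p = 0.72). In sham limbs 0 of 47 passed in either analysis (0.106% of all genes did in limma) and 10 had an unadjusted p under 0.05 (12% of all genes). By the deposited scaling 46 of the 47 had a log2 fold change above 0 in sham limbs (53% of all genes), with a median of 0.14, whereas with equal library totals 22 did, with a median of −0.00, and the median of all genes moved to −0.11. Ndufc1 had the smallest p. It had 3006, 2592, 2491, 2295 and 2621 in sham libraries labelled Opg-/-, against 2260.3, 2139, 2123 and 2159 in WT sham, without overlap (1.74% of all genes were higher without overlap). Its log2 fold change was 0.26 ± 0.08 (adjusted p = 0.19). Ndufb1-ps followed (0.27 ± 0.11, adjusted p = 0.32), and Ndufaf5 was the other member without overlap (0.27 ± 0.11, adjusted p = 0.35). These directions are by label, which Tnfrsf11b went against.

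The question whether denervation acted differently by genotype was addressed by the interaction, the den over sham change in Opg-/- minus that in WT. It passed the test for 0 of 47 members by limma (0.00557% of all genes did) and by voom, and 3 had an unadjusted p under 0.05 (6.96% of all genes). Ndufc1 had −0.32 ± 0.11 (adjusted p = 0.56) and Ndufaf7 −0.33 ± 0.14 (adjusted p = 0.69), the smallest p-values among members. The point estimate was above 0 for 1 of 47 members with the deposited scaling (median −0.15, 47.7% of all genes above 0), and for 26 of 47 with equal totals (median 0.00). The higher count of calls in Opg-/- than in WT (43 and 38 lower) is thus not a difference shown between the genotypes. Both genotypes gave nearly the same order of members, with a Pearson's r of 0.98 between the log2 fold changes over the 47 genes, as a description over genes that share libraries within each genotype.

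Cell type markers moved along with denervation by the deposited scaling. Among all genes, 26.4% fell and 28.6% rose in Opg-/-, and 25.7% fell and 26.9% rose in WT. Of 10 muscle fibre markers 9 fell and 0 rose in Opg-/- (median −1.16), and 8 fell and 1 rose in WT (median −0.88). Their summed value was 1064421 to 1504291 in Opg-/- den and 1112185 to 1523929.5 in WT den, against 3583613 to 4584030.0 in Opg-/- sham and 3070004 to 3987121 in WT sham. All 10 endothelial markers fell in both genotypes (medians −1.07 and −0.96). Macrophage markers rose, 10 of 10 in Opg-/- (median 1.27) and 5 of 10 in WT (median 0.66), and the interaction passed for 0 of 10. Their median for Opg-/- over WT was −0.75 in sham limbs and −0.13 in den limbs, with 0 of 10 passing in each. Of 8 Schwann cell markers 4 fell and 0 rose in each genotype (medians −1.62 in Opg-/- and −2.42 in WT). Of 7 adipocyte markers tested, 1 fell in Opg-/- (median −0.28) and 6 in WT (median −1.29), and the interaction passed for 0 of 7. Of 8 fibroblast markers 3 fell and 2 rose in Opg-/- (median −0.15), and 3 fell and 1 rose in WT (median −0.50). No marker of these lists was at 0 throughout a group but for 1 adipocyte marker, Ucp1. The part of these shifts in the fall of the complex I genes was not tested.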

How the data were processed

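Total RNA of gastrocnemius muscle was sequenced by the authors from libraries that were not strand-specific, and reads were mapped with STAR to mm10 and quantified with RSEM. The deposited signal values, for 32285 genes in 20 libraries, have the form of expected counts from RSEM on a scale set by 1 size factor for each library. Divided by the value of 1 read, 87.2% to 88.2% of values above 0 were whole within 0.01. Versions are not given in the sources used here. Column names give genotype, limb and number, and the limb letters were read through the study's methods (right den, left sham).

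After log2(value + 1), limma 3.58.1 was run under R 4.3.3 with trend and robust options, in 1 fit over 4 groups and the 17948 genes that reached 1 in 4 or more libraries. The p-values were two-sided and adjusted by Benjamini-Hochberg over all genes. Reads recovered were 15186247 to 20102295 per library, and intervals cover the spread between libraries only. WT sham 1 and 2 entered as their mean. The script was tested on simulated data. Since the values are not raw counts, no negative binomial model was used. Replicate numbers are shared between limbs but are not stated to mark a mouse, so no block was used. The alternatives were no filter, a stricter filter of 10, a pseudocount of 0.1, WT sham 1 and 2 separate, a replicate block, the compared groups alone, equal library totals, limma voom on recovered reads, and each library left out. The replicate block used the numbers across both genotypes and was not a block per mouse. Length of the principal transcript was added after the data were seen.

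Members and lists were chosen with earlier results of these data known. Genes were named by a rule: core subunits, all Ndufaf genes, Ndufa4, Ndufa4l2 and Ndufa12, the 5 other subunits with the largest fall and the 5 with the smallest change, members that moved against most, and those with the smallest p between genotypes and in the interaction. Genes outside the rule (Ndufv3, Ndufab1, the promoter motif carriers and genes of other lists) were named after their values were seen. Results of 1 core subunit and 1 marker gene are not reported here, though both stay in the counts and medians of their lists. Gene positions and exon lengths came from GENCODE release M21 (GRCm38, 32158 of 32285 genes found) and promoters from RefSeq (GRCm38.p6). Exact permutation tests and summaries were run in Python 3.11.15 (numpy 2.4.6, pandas 2.3.3, scipy 1.17.1), and plots drawn with matplotlib 3.10.9.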

Additional observations from a re-analysis of the deposited data

Results flagged for a closer look

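Single libraries stood apart within their group for 8 of 112 combinations of a named member and a group, tested by the gap to the nearest library over the range of the group. Chance gives about 1 in 20. WT den 4 was the highest of WT den for Ndufa12 (2144, against 1483 to 1639.7 in the other 4), Ndufa4 (4820, against 3593 to 3923), Ndufs3 (3261, against 2612 to 2687) and Ndufs7 (3108, against 2279 to 2517). Opg-/- sham 1 was the highest of its group for Ndufa7 (2125, against 1795 to 1863), Ndufb5 (4587, against 3389 to 3649) and Ndufs8 (2165, against 1815 to 1868). The mean of WT sham 1 and 2 was the highest of WT sham for Ndufv2 (4483, against 3773 to 3817). WT den 4 and Opg-/- sham 1 also had the highest summed value of the structural subunits in their groups. Among these 8 genes, each den over sham call was the same without the library that stood apart.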

How the results depend on the processing

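Members called lower numbered 41 to 43 in Opg-/- and 36 to 39 in WT when each library was left out in turn, and 1 was called higher each time. No filter, the stricter filter, the pseudocount of 0.1, WT sham 1 and 2 kept separate, the compared groups alone and voom kept the direction of every named call and its side of the threshold, with the exception of Ndufs4 in Opg-/- without a filter (−0.18, adjusted p = 0.054). The replicate block, fitted with WT sham 1 and 2 separate, changed 1 named call, Ndufs4 in Opg-/- (−0.18, adjusted p = 0.062), and gave 42 members lower in Opg-/- and 38 in WT. Its levels were the replicate numbers, shared by both genotypes. It therefore did not pair the limbs of a mouse and cannot show whether calls hold under such pairing. The check used did not settle whether the numbers pair the libraries. Correlations were −0.05 to 0.07 in 10 pairs, with 0 of 10 over 0.1. Yet 5 of 10 den libraries correlated best with their own number, out of 5 sham libraries each.

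Equal library totals moved most values, since the deposited values sum to less in den than in sham libraries. Members called higher were 5 in Opg-/- and 8 in WT (47.5% and 39.2% of all genes). The structural median was −0.32 in Opg-/- and −0.37 in WT, and the assembly median turned to 0.086 and 0.10. The median of all genes moved to 0.42 and 0.26. Members with a value above 0 numbered 12 in each genotype, against 2 in Opg-/- and 5 in WT by the deposited scaling. Among the named genes called under either scaling, the log2 fold change turned to 0.44 for Ndufa7, 0.10 for Ndufaf1, 0.074 for Ndufaf3, 0.19 for Ndufaf7, 0.088 for Ndufb1-ps, 0.15 for Ndufb3, 0.28 for Ndufs4 and 0.33 for Ndufs5 in Opg-/-, and to 0.024 for Ndufaf3, 0.25 for Ndufb1-ps, 0.18 for Ndufb3 and 0.17 for Ndufs4 in WT. Tnfrsf11b kept its direction and its side of the threshold (exact permutation p = 0.55 in den and 0.032 in sham). With Ndufa4 and Ndufa4l2 counted as structural the medians stayed within the spread between libraries. With the principal transcript length, chosen after seeing the data, the WT sham median per kb was 2786 for structural subunits and 228 for assembly factors, against 1524 and 176 with merged exons, over 34 and 6 genes with such a transcript. Values rest on 15186247 to 20102295 reads per library, and the lowest member value was 57.7 (Ndufa4l2).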
